A study of Homo sapiens with 16 samples.

Results

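The genes described here are the tissue inhibitors of metalloproteases TIMP1, TIMP2 and TIMP3, the matrix metalloproteases MMP1, MMP9 and MMP14, and the related surface and secreted metalloproteases ADAM8, ADAM17 and ADAMTS1. They are 9 of the 35052 genes to which the transcripts could be assigned, and they were picked by name for their behaviour in these libraries, TIMP1 because it came to take about 1% of all reads. Their levels over the time course are therefore a description, and no test is given of them. The study used wild-type K562 cells, an established human leukaemia line that expresses erythroid genes, treated with 25 nM phorbol 12-myristate 13-acetate (PMA), an activator of protein kinase C used there to bring the cells into a megakaryocyte-like state. RNA was sequenced, after removal of ribosomal RNA from total RNA, at 0 h and 0.5 h, early at 1.5, 3 and 6 h, and late at 24, 48 and 72 h of treatment, with 2 libraries at each of the 8 time points. The 0 h libraries are the untreated control, the culture medium was replaced after 24 and 48 h of treatment, and no vehicle-treated series is among the 16 libraries. All groups are 1 cell line. The labels do not say whether replicates 1 and 2 came from separate cultures, so errors and p-values measure only the spread between these libraries.

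Matrix metalloproteases are zinc enzymes that are made as inactive precursors and cut collagens, laminins and other matrix proteins, as well as growth factors and receptors, once the propeptide is removed. TIMPs are small secreted proteins that block these enzymes by inserting into the catalytic cleft and binding its zinc. ADAM proteases sit in the membrane and release the outer parts of other surface proteins, and ADAMTS proteases are secreted and cut matrix proteoglycans and procollagens. In the megakaryocyte and platelet lineage, enzymes and inhibitors of this kind take part in the passage of cells through matrix and in the shedding of surface receptors.

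The members divide into enzymes and inhibitors by the zinc-binding stretch of the catalytic domain, which is shown because the inhibitors act on it. A search of the GENCODE 29 coding sequences for a histidine codon followed by a glutamate codon, with the 2 further histidine codons at the spacing known for this enzyme class, found 1 such stretch in each of the 6 enzymes and 0 in TIMP1, TIMP2 and TIMP3, whose coding sequences hold 207, 220 and 211 codons. The capitals mark the codons of the zinc-binding histidines and of the glutamate.
MMP1: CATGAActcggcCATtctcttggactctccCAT
MMP9: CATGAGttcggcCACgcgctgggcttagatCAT
MMP14: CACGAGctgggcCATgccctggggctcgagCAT
ADAM8: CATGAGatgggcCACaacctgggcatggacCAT
ADAM17: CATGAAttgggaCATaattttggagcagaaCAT
ADAMTS1: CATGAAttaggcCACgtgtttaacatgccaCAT
The stretch began at codon 218 in MMP1, 401 in MMP9, 239 in MMP14, 334 in ADAM8, 405 in ADAM17 and 401 in ADAMTS1.

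TIMP1, the inhibitor of most secreted matrix metalloproteases, lies on GRCh38 chromosome X from 47582313 to 47586789 on the plus strand. Before treatment its level was 81.05 and 137.3 CPM in replicates 1 and 2, where CPM is a gene's estimated reads relative to the TMM-scaled size of the library. The levels were 74.0 and 80.98 CPM at 0.5 h, 185.6 and 179.0 CPM at 1.5 h, 1101 and 1013 CPM at 3 h, and 2692 and 3265 CPM at 6 h. On the later days the libraries held 9612 and 11950 CPM at 24 h, 10040 and 12010 CPM at 48 h, and 8618 and 10340 CPM at 72 h. Every library from 1.5 h on was above both 0 h libraries, each step from 1.5 to 24 h was larger than the spread between libraries, and the 3 later time points overlapped one another. In mean level the order from the lowest was 0.5, 0, 1.5, 3, 6, 72, 24 and 48 h, of which 72 and 24 h overlapped, as did 24 and 48 h.

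As a share of all estimated reads, TIMP1 took 0.00894% (95% Wilson interval 0.00860 to 0.00928%) and 0.0146% (0.0142 to 0.0150%) at 0 h. The share was 0.0936 and 0.0952% at 3 h, 0.231 and 0.270% at 6 h, 0.900 and 1.07% at 24 h, 0.985 and 1.14% at 48 h, followed by 0.814 and 1.03% at 72 h. These shares correspond to 2641 and 4266 reads at 0 h and to 309271 and 330864 reads at 72 h, and the intervals cover counting error only. By reads, TIMP1 ranked between 2 and 3 among all genes in the 6 libraries of 24 to 72 h. By TPM, the abundance per transcript length, it was the first or the second gene in each of those 6 libraries. The fitted log2 fold changes against 0 h were 3.28 (SE 0.22) at 3 h, 4.77 (SE 0.24) at 6 h, 6.63 (SE 0.26) at 24 h, 6.66 (SE 0.26) at 48 h and 6.44 (SE 0.26) at 72 h. At 72 h this is 86.8-fold, from 109.2 ± 39.8 CPM (SD, n = 2) to 9477 ± 1210 CPM (SD, n = 2).

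**Figure D1:**
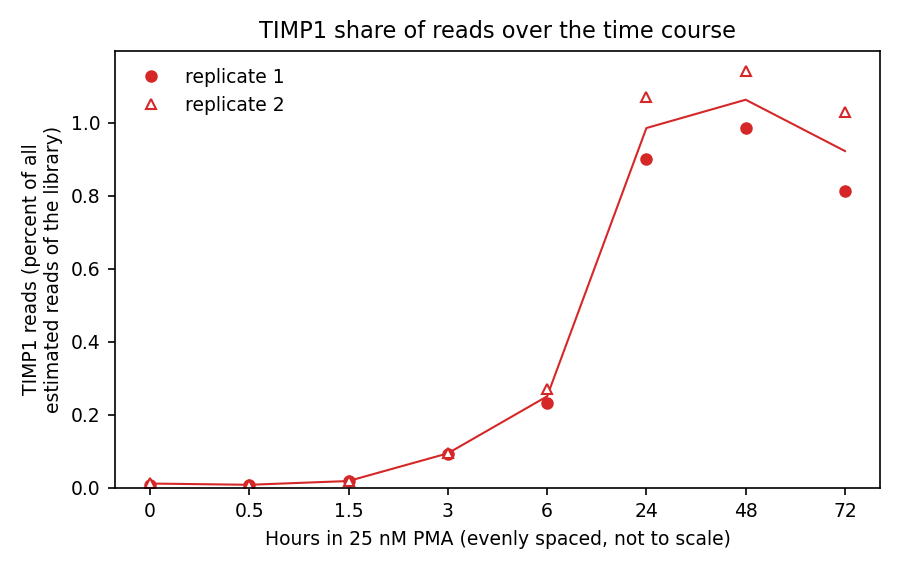
TIMP1 reads as a percent of all estimated reads of the library (vertical axis) against hours in 25 nM PMA (horizontal axis, evenly spaced and not to scale); filled circles are replicate 1, open triangles replicate 2, and the line joins the means. The share is under 0.02% up to 1.5 h, 0.231 and 0.270% at 6 h, and 0.814 to 1.14% in the 6 libraries of 24 to 72 h.

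The gap between the 0 h libraries was the widest TIMP1 showed on the log scale. The same libraries differed in base composition: the log ratio of replicate 2 to replicate 1 correlated with gene GC content at r = 0.73 at 0 h over 9983 genes, which share libraries and are not independent, and at −0.38 to 0.56 at the other time points. The log2 fold change of TIMP1 at 72 h was 6.73 within replicate 1 and 6.23 within replicate 2, and it was 6.44 once the GC trend of each library was removed. In these bulk samples, more TIMP1 RNA per cell and more cells that make it cannot be told apart.

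The TIMP1 gene lies inside SYN1, the synapsin I gene, which runs on the opposite strand of chromosome X from 47571898 to 47619943 and shares 0 exonic bases with it. SYN1 stood at 0.368 and 0.612 CPM at 0 h, 14.8 and 17.0 CPM at 6 h, 93.2 and 118 CPM at 24 h, and 37.6 and 49.0 CPM at 72 h. SYN1 rose in the edgeR quasi-likelihood test by a log2 fold change of 5.02 (SE 0.24, adjusted p = 7.68e-10) at 6 h, 7.75 (SE 0.24, adjusted p = 8.64e-12) at 24 h and 6.46 (SE 0.24, adjusted p = 3.72e-11) at 72 h. SYN1 held at most 5688 reads in a library, against up to 575929 for TIMP1, and the strand setting of the counting is not given in the sources used here. Whether reads of one gene were counted for the other was not tested.

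The promoter of TIMP1 is shown because the gene went from under 0.02% to about 1% of reads under a phorbol ester, an agent long known to act on genes through AP-1 factors. In the 300 bases of the RefSeq GRCh38.p14 window, 250 before the transcription start and 50 after it, both strands were searched for the AP-1 consensus TGANTCA, which TIMP1 lacked, and for the variant TGAGTAA, which it held once from position −101 to −95. The capitals mark the variant, on the plus strand at chrX:47582324-47582353.
TIMP1 promoter: tggtgggtggaTGAGTAAtgcatccaggaa
Of 35116 RefSeq promoters of that length, 2.57% held TGAGTAA and 7.71% held TGANTCA. The TIMP1 window also held CAGGAAG, an ETS-type motif, from −88 to −82 (12.7% of promoters), and GGGCGG, an Sp1 motif, at 2 places (45.0% of promoters). Both TGAGTAA and CAGGAAG were added to the search after the TIMP1 sequence had been seen. GENCODE 29 places the start of TIMP1 at 47582313, upstream of the variant, so that annotation has it inside the transcript. Promoters of 5 of the 9 members were in the table (TIMP1, TIMP3, MMP14, ADAM8 and ADAM17), and 0 of the 5 held TGANTCA or TATAAA, the latter present in 11.5% of all promoters. The Sp1 motif occurred 5 times in the TIMP3 window, 3 times each in those of ADAM8 and ADAM17, and 1 time in that of MMP14, and the ADAM17 window held CAGGAAG from −158 to −152. A match is a description of the letters and not of a bound site.

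The transcripts within TIMP1 offered a measure that the choice of genes had not used, since members were read as sums over their transcripts. All 5 TIMP1 transcripts are annotated as coding. TIMP1-201, of 6 exons, held 84.8 and 93.4% of the TIMP1 reads at 0 h and 66.7 and 74.4% at 1.5 h. It held 94.6 and 95.9% at 6 h and 99.1 and 99.1% at 72 h. TIMP1-205, an annotated transcript of 4 exons whose last exon runs into the next intron, held 5.49 and 6.21% at 0 h, 23.7 and 21.6% at 1.5 h, 7.52 and 8.92% at 3 h, 3.28 and 2.91% at 6 h, with 0.534 and 0.515% at 72 h. Its share at 1.5 h stood above all other time points, where it ranged from 0.509 to 8.92% per library; no test was run at 1.5 h, and this time point was singled out after its values were seen.

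Between 72 h and 0 h, transcript usage was tested with diffSpliceDGE of edgeR over 12234 genes with at least 2 transcripts, of which 8.40% were called. TIMP1 was called (Simes p, Benjamini-Hochberg adjusted p = 0.00737, 5 transcripts). Relative to the gene as a whole, TIMP1-205 fell by 2.43 on the log2 scale (edgeR adjusted p = 0.0118) and TIMP1-202 fell by 2.90 (edgeR adjusted p = 0.00906). TIMP1-202 was uneven at 0 h, with 9.38 and 0.0999% of TIMP1 reads. The TIMP1 call was lost without replicate 1 of 72 h (adjusted p = 0.106) and without replicate 2 of 72 h (adjusted p = 0.138). In simulated data with the same spread for all transcripts, which the real data need not have, 11.89% of the usage calls were false. TIMP2, MMP14, ADAM8 and ADAM17 did not pass (adjusted p = 1 for each), and TIMP3, MMP1, MMP9 and ADAMTS1 had fewer than 2 transcripts to test.

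**Figure D2:**
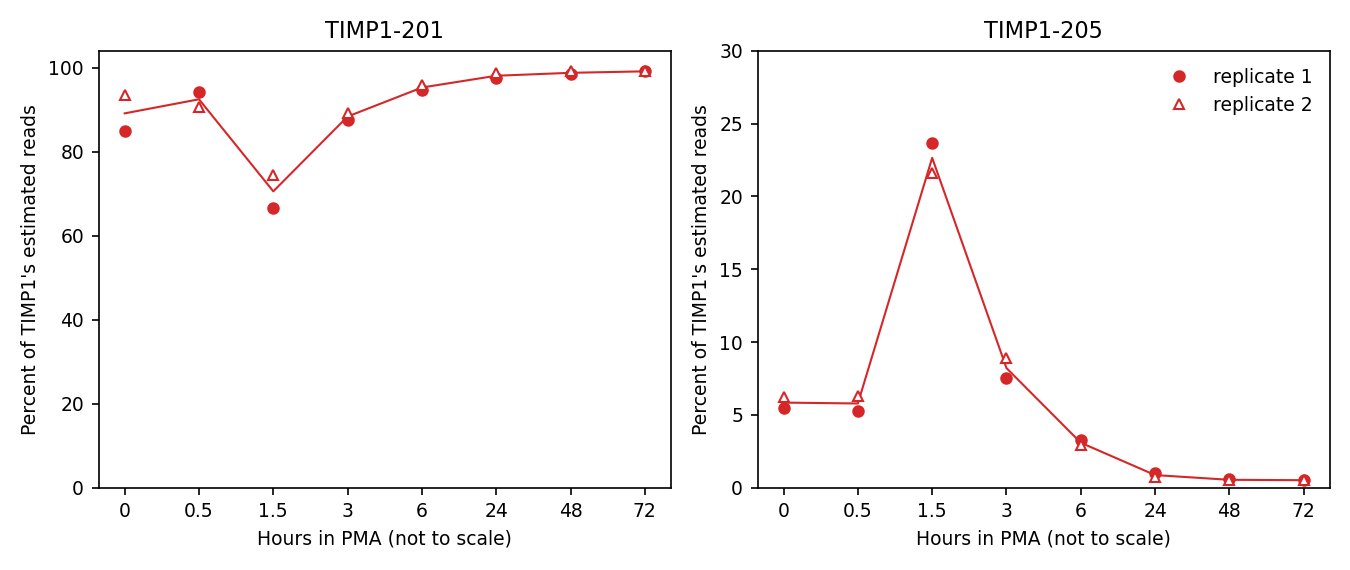
Percent of TIMP1's estimated reads assigned to TIMP1-201 (left) and TIMP1-205 (right), each with its own vertical axis, against hours in PMA (not to scale); filled circles are replicate 1, open triangles replicate 2, and lines join the means. At 1.5 h TIMP1-201 held 66.7 and 74.4% and TIMP1-205 held 23.7 and 21.6%, and at 72 h both libraries had 99.1% in TIMP1-201.

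TIMP3, the inhibitor that binds to the matrix and also blocks ADAM17, lies on chromosome 22 from 32801701 to 32863043 (plus strand), inside SYN3 on the opposite strand. Its level was 0.890 and 0.8046 CPM at 0 h, 1.485 and 1.486 CPM at 1.5 h, 3.016 and 3.294 CPM at 3 h, and 3.329 and 2.974 CPM at 6 h. It then stood at 95.96 and 105.7 CPM at 24 h, 92.04 and 92.36 CPM at 48 h, and 109.1 and 105.6 CPM at 72 h. TIMP3 thus had a low plateau at 3 and 6 h, which overlapped, and a high one from 24 h. Its log2 fold change against 0 h was 1.88 (SE 0.15) at 6 h and 6.89 (SE 0.12) at 24 h, where that of TIMP1 was 4.77 and 6.63. Its reads ran from 25 and 29 at 0 h to 3381 and 3915 at 72 h. The host gene SYN3 did not pass the edgeR test at 72 h (log2 fold change 0.25, adjusted p = 0.698), fell at 6 h (log2 fold change −2.50, SE 0.78, adjusted p = 0.0113), and was at most 0.644 CPM in any library.

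TIMP2, which inhibits metalloproteases and also takes part with MMP14 in the activation of MMP2, lies on chromosome 17 from 78852977 to 78925387 (minus strand). It had 1 and 2 reads at 0 h, 6 and 6 at 3 h, 10 and 6 at 6 h, 28 and 29 at 24 h, 68 and 94 at 48 h, with 202 and 155 at 72 h. Summed over both libraries and scaled for depth, the ratio to 0 h was 15.3 (95% counting interval 4.97 to 76.3) at 24 h, 50.1 (interval 16.8 to 245) at 48 h and 112 (interval 37.9 to 544) at 72 h. Its level at 72 h, 5.629 and 4.842 CPM, was above those at 48 h, 2.072 and 2.621 CPM, which were above those at 24 h, 0.9037 and 0.6018 CPM. Among TIMP1, TIMP2 and TIMP3, only TIMP2 was thus still higher at each later time point, while the TIMP1 and TIMP3 libraries of 24 and 72 h overlapped. This was not particular to TIMP2 among inhibitors. TIMP4 stood at 1.55 and 1.37 CPM at 24 h, 2.41 and 3.23 CPM at 48 h, and 4.29 and 3.87 CPM at 72 h. The inhibitor A2M stood at 2.03 and 2.2 CPM at 24 h, 35.3 and 34.9 CPM at 48 h, and 87.9 and 65.7 CPM at 72 h. TIMP2 shares 198 exonic bases with CEP295NL on the same strand, which had at most 5 reads in a library. It also shares 367 of its 5633 exonic bases with AC022966.1, an antisense gene on the opposite strand, for which no level is given here.

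MMP1, the interstitial collagenase that opens fibrillar collagens, lies on chromosome 11 from 102789920 to 102798160 (minus strand). It had 15 and 3 reads at 0 h, or 0.4603 and 0.09656 CPM, and stood at 1.727 and 1.598 CPM at 3 h and at 23.56 and 25.28 CPM at 6 h. The highest levels were at 24 h, 83.11 and 95.5 CPM, followed by 28.83 and 29.92 CPM at 48 h and 19.7 and 17.02 CPM at 72 h. All neighbours in the order from 3 h on were separate, with 72 h below 6 h. The log2 fold change was 8.29 (SE 0.27) at 24 h and 6.01 (SE 0.28) at 72 h, and at 24 h it was 9.81 with the first 0 h library left out and 7.59 with the second left out. MMP1 shares 150 of its 1970 exonic bases with WTAPP1, a pseudogene transcribed from the opposite strand, which held 2 to 13 reads per library.

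MMP9, the gelatinase that cuts denatured collagen and basement membrane, lies on chromosome 20 from 46008908 to 46016561 (plus strand). It had 2 and 2 reads at 0 h, 166 and 304 at 24 h, 132 and 149 at 48 h, with 67 and 56 at 72 h. At 6 h its level was 0.1707 and 0.1062 CPM, from 4 and 3 reads. The ratio to 0 h was 2.16 (95% counting interval 0.548 to 10.0) at 6 h, 94.5 (interval 36.7 to 348) at 24 h, 65.1 (interval 25.2 to 241) at 48 h and 28.8 (interval 11.0 to 107) at 72 h. MMP9 and MMP1 were thus both highest at 24 h and lower, without overlap, at 48 and again at 72 h, but at 6 h both MMP1 libraries were far above those of 0 h, while the counting interval for MMP9 included 1. The difference between the genes was not tested. MMP9 shares 430 of its 2336 exonic bases with SLC12A5-AS1, an antisense gene on the opposite strand, for which no level is given here. Whether reads of one were counted for the other was not tested.

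MMP14, the membrane-bound metalloprotease that activates MMP2 and is poorly blocked by TIMP1, lies on chromosome 14 from 22836557 to 22849027 (plus strand). Its level was 6.598 and 6.984 CPM at 0 h, 3.969 and 5.098 CPM at 6 h, 3.078 and 3.570 CPM at 48 h, and 3.790 and 4.155 CPM at 72 h. All libraries from 6 h on were below both 0 h libraries, with a log2 fold change of −1.03 at 48 h and −0.77 at 72 h (SE 0.16 each). MMP14 was thus on the other side of its 0 h level from MMP1 and MMP9, and by a far smaller amount.

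**Figure D3:**
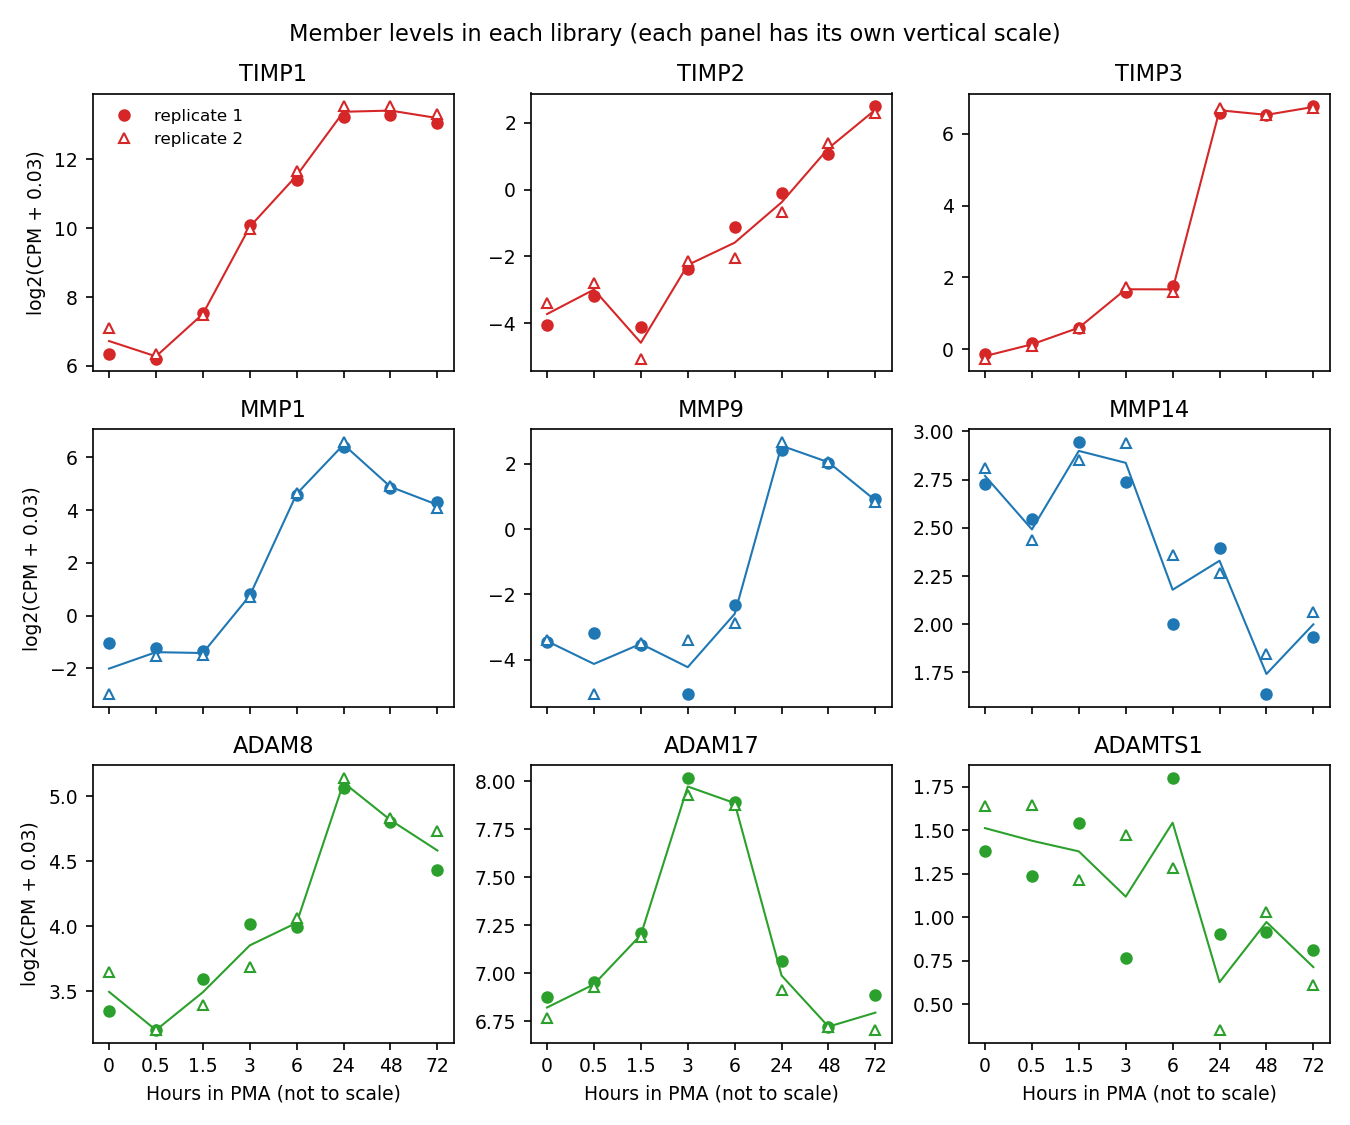
log2(CPM + 0.03) of each member (vertical axis, a separate scale in each panel) against hours in PMA (not to scale), with TIMPs in red, MMPs in blue and ADAM and ADAMTS genes in green; filled circles are replicate 1, open triangles replicate 2, and lines join the means. TIMP1 and MMP1 are above 0 h from 3 h, TIMP3 and MMP9 take their large step between 6 and 24 h, and ADAM17 is highest at 3 and 6 h.

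ADAM17, the membrane protease that releases TNF, EGF-receptor ligands and cytokine receptors, lies on chromosome 2 from 9488486 to 9556732 (minus strand). Its level was 117.4 and 108.8 CPM at 0 h, 148.1 and 145.8 CPM at 1.5 h, 259.5 and 243.5 CPM at 3 h, and 238.1 and 235.4 CPM at 6 h. At 24 h it was 133.7 and 120.4 CPM, and at 72 h, 118.2 and 104.1 CPM, which overlapped the 0 h libraries. The log2 fold change was 1.15 at 3 h and 1.07 at 6 h, so that ADAM17 was transiently high when TIMP1 was still climbing. The share of its reads in ADAM17-201, the coding transcript with the most reads, was 41.8 and 43.9% at 0 h. It was 68.1 and 58.1% at 3 h, with 58.6 and 48.1% at 72 h. ADAM17 shares 1323 of its 10750 exonic bases with IAH1 on the opposite strand, which stood between 4.15 and 5.90 CPM at all time points. It shares 142 more with AC073195.1 on the opposite strand, for which no level is given here.

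ADAM8, a membrane protease of leukocytes, lies on chromosome 10 from 133262403 to 133276868 (minus strand). It stood at 10.13 and 12.49 CPM at 0 h, 15.88 and 16.67 CPM at 6 h, 33.47 and 35.28 CPM at 24 h, 27.82 and 28.47 CPM at 48 h, and 21.54 and 26.58 CPM at 72 h. Like MMP1 and MMP9 it was highest at 24 h, with log2 fold changes of 1.60 at 24 h and 1.09 at 72 h. ADAMTS1, a secreted protease of versican and aggrecan, lies on chromosome 21 from 26835747 to 26845409 (minus strand). It stood at 2.578 and 3.090 CPM at 0 h and at 1.728 and 1.499 CPM at 72 h (log2 fold change −0.81, SE 0.29), and 6 of the 7 neighbours in its order of time points overlapped. Of its reads, 98.73% were assigned to ADAMTS1-203, an annotated transcript with a retained intron, so its level is mainly that of this transcript.

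Per transcript length, the TIMPs exceeded the 3 matrix metalloproteases described here at every time point. At 0 and 0.5 h they did not exceed the sum of all listed MMP, ADAM and ADAMTS genes. The summed TPM of TIMP1, TIMP2 and TIMP3 was 228.2 and 331.6 at 0 h, 5988 and 6585 at 6 h, 25220 and 28450 at 24 h, with 23710 and 29070 at 72 h. That of MMP1, MMP9 and MMP14 was 10.34 and 8.996 at 0 h, about 20 and 20.74 at 6 h, 77.5 and 79.97 at 24 h, with 22.62 and 22.8 at 72 h. That of ADAM8, ADAM17 and ADAMTS1 was 68.9 and 61.12 at 0 h, 81.38 and 65.94 at 24 h, with 66.34 and 70.88 at 72 h. The TIMP libraries of 24 and 72 h thus overlapped, as did those of the ADAM group, while MMP1, MMP9 and MMP14 together were lower at 72 h than at 24 h. TIMP TPM per TPM of these 3 MMPs was 22.1 and 36.9 at 0 h, 304 and 241 at 3 h, 325 and 356 at 24 h, 880 and 1000 at 48 h, with 1050 and 1280 at 72 h. TIMP1 made up at least 99.79% of the TIMP total in every library. Among the 3 MMPs, MMP1 made up 3.88 and 0.850% of the TPM at 0 h and 88.7 and 87.5% at 24 h, whereas MMP14 alone stood at 9.897 and 8.877 TPM at 0 h. Over the whole MMP family (23 genes) the ratio of the 4 TIMPs was far lower, at 3.38 and 4.57 at 0 h, 150 and 182 at 24 h, 287 and 367 at 48 h, with 256 and 319 at 72 h, so that it was not above its 48 h range at 72 h. MMP19 alone held 59.1 and 48.8 TPM in the 24 h libraries and 56.1 and 54 TPM in those of 72 h, where it was above MMP1, MMP9 and MMP14 together. With the 37 ADAM and ADAMTS genes added to the MMPs, the TIMPs stood at 0.606 and 0.964 per unit of the summed TPM at 0 h. At 0.5 h they stood at 0.54 and 0.648. The values were 44.5 and 57.6 at 24 h, 52.7 and 64.9 at 48 h, with 38.4 and 53.9 at 72 h. The TIMPs were thus above this sum in every library from 1.5 h on. They were below it in all libraries of 0 and 0.5 h, only just so in replicate 2 of 0 h. These genes were summed by family name, and whether each encodes an active protease was not checked. A ratio of RNA levels is not a ratio of proteins or of active enzyme.

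**Figure D4:**
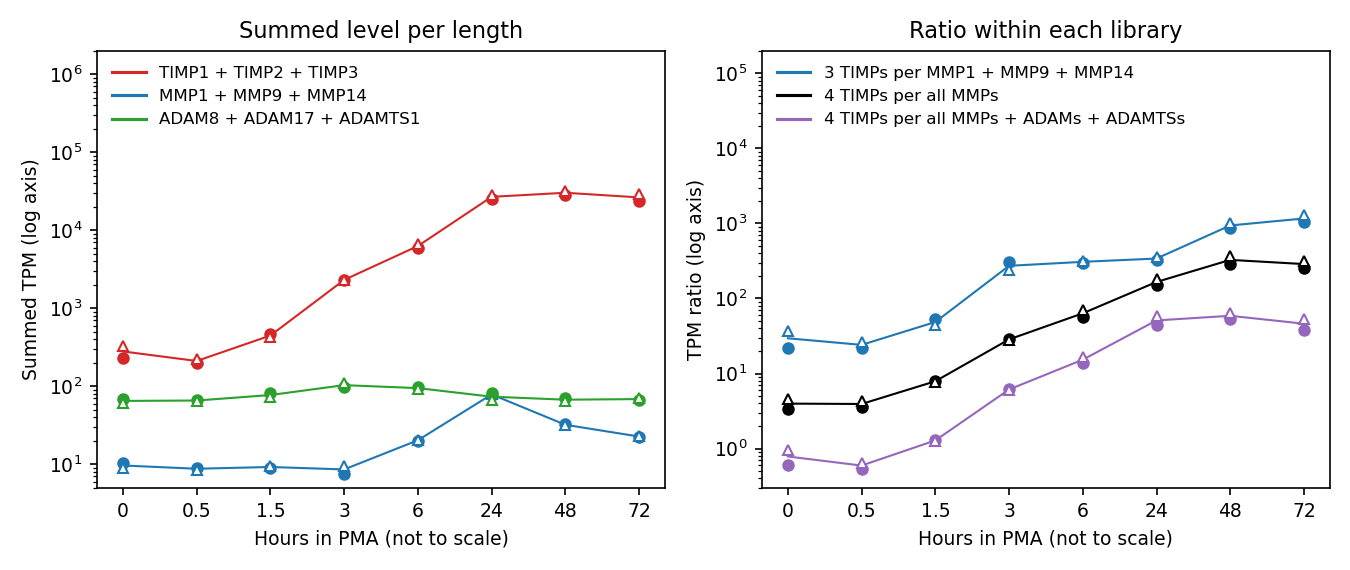
Left: summed TPM (log axis) of the TIMPs, the MMPs and the ADAM and ADAMTS members against hours in PMA (not to scale). Right: ratio of summed TPM within each library (log axis), for the TIMPs per MMP1, MMP9 and MMP14 (blue), per all MMPs (black) and per all MMPs, ADAMs and ADAMTS genes (purple). Filled circles are replicate 1, open triangles replicate 2, and lines join the means; at 72 h the blue points are at 1050 and 1280, the black at 256 and 319 and the purple at 38.4 and 53.9.

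The genes whose 7 log2 fold changes against 0 h were most like those of TIMP1, among 11268 candidates, were IL4R (root-mean-square difference 0.49), ARID5B (0.50), SYN1 (0.52), CD9 (0.55) and EFNB2 (0.68). For MMP1 they were LAMC1 (0.63) and SYN1 (0.66), and for MMP9, DUSP4 (0.66) and VASH1 (0.68). For TIMP2 they were LRRC4B (0.52) and AKAP2 (0.90), and for TIMP3, DAGLA (0.60) and CD93 (0.78). The members with small differences had closer partners: ATG12 (0.10) for ADAM17, CD68 (0.16) and PRKACA (0.18) for ADAM8, UBXN1 (0.17) and HAX1 (0.17) for MMP14, and GTSE1 (0.10) and KCNV1 (0.10) for ADAMTS1. These values share the 0 h libraries and are a description. By Pearson r over the 8 time points, 1 of the 5 genes named for TIMP1, ARID5B, was again among the top 5.

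The members were set against 107 other genes, 105 of matrix proteolysis in lists by role and the host genes SYN1 and SYN3, of which 80 passed the filter on low counts, and each was tested against 0 h with edgeR's quasi-likelihood test over all 17559 genes. Benjamini-Hochberg adjusted p under 0.05 called 0 of the 80 at 0.5 h (of all genes, 0.171% were called, 0.165% higher and 0.0057% lower; 18 of the 80 had an unadjusted p under 0.05, and DESeq2 called 1). At 1.5 h 7 of the 80 rose and 4 fell (of all genes, 17.1% were called, 9.05% higher and 8.05% lower), and with libraries scaled to total counts 7 of the 17 called rose. These counts hung on single libraries. Leaving out replicate 1 of 0 h raised the counts of both 0.5 and 1.5 h. That of 1.5 h was lower without replicate 2 of 0 h and without either 1.5 h library. The counts by unadjusted p, by DESeq2 and under other scaling have no share over all genes beside them. They therefore describe the settings and show nothing particular to these lists. At 3 h 30 rose and 9 fell (42.0% of all genes were called, 21.5% higher and 20.5% lower). At 6 h 36 rose and 12 fell (57.2% of all genes, 27.8% higher and 29.4% lower), and by 24 h 44 had risen and 14 fallen (58.3% of all genes, 31.7% higher and 26.6% lower). At 48 h 49 rose and 11 fell (54.3% of all genes, 30.2% higher and 24.1% lower), and at 72 h 52 rose and 9 fell (58.6% of all genes, 31.7% higher and 26.9% lower). SYN1 is among those that rose from 3 h on and SYN3 among those that fell at 6 h, so that without both hosts 51 of 78 rose and 9 fell at 72 h. The median log2 fold change of the 80 at 72 h was 1.45, or 1.23 with ADAM20 and ADAMTS18, at 0 reads in both 0 h libraries, put at the bound that 3 reads per library give, against −0.032 for all genes tested.

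Among the relatives of the TIMPs and other inhibitors, 6 of 7 rose and 0 fell at 72 h, with a median log2 fold change of 4.54, while 2 rose and 0 fell at 6 h. In this list 85.7% were called at 72 h and 28.6% at 6 h, against 58.6 and 57.2% of all genes. TFPI2, a serine protease inhibitor of the matrix, went from 0.430 and 0.354 CPM at 0 h to 748 and 645 CPM at 72 h (log2 fold change 10.78 with an SE of 0.22, edgeR adjusted p = 1.99e-13). A2M, the trap inhibitor alpha-2-macroglobulin, had 1 read at 0 h and 87.9 and 65.7 CPM at 72 h (ratio 4930, 95% counting interval 885 to 195000, edgeR adjusted p = 2.62e-11). At 6 h TFPI2 was at 16.6 and 18.2 CPM and had also risen (log2 fold change 5.46 with an SE of 0.22, edgeR adjusted p = 1.31e-10). The inhibitors that rose were thus of several families, and not TIMPs alone.

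Of the other matrix metalloproteases, 10 of 20 passed the filter, 4 rose and 2 fell at 6 h, and 5 rose and 2 fell at 72 h (median log2 fold change 1.27). The share called was 60% at 6 h and 70% at 72 h, near the 57.2 and 58.6% of all genes. MMP10, a stromelysin, had 3 reads in sum over both 0 h libraries. It stood at 21.8 and 23.9 CPM at 6 h, 21.5 and 21.3 CPM at 24 h, and 0.752 and 0.437 CPM at 72 h. It rose at 6 h (ratio 487, 95% counting interval 166 to 2360, edgeR adjusted p = 2.05e-09), and like MMP1 it was lower at 72 h than at 24 h. MMP19 stood at 1.87 and 2.12 CPM at 0 h, 67.1 and 69.9 CPM at 6 h, and 66.0 and 70.1 CPM at 72 h, and rose at 72 h by 5.09 on the log2 scale (SE 0.11, edgeR adjusted p = 3.04e-13).

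Among the other ADAMs, 2 of 12 rose and 2 fell at 6 h, and 6 rose and 2 fell at 72 h (median 0.82, or 0.57 with ADAM20 at its bound). These are 33.3% called at 6 h and 66.7% at 72 h, against 57.2 and 58.6% of all genes. ADAM9 rose at 6 h (log2 fold change 0.86 with an SE of 0.16, edgeR adjusted p = 0.000278) and ADAM15 fell (−1.26 with an SE of 0.16, edgeR adjusted p = 1.47e-05). At 72 h ADAM10, the sheddase closest to ADAM17, rose from 194 and 146 CPM to 366 and 271 CPM (log2 fold change 0.90 with an SE of 0.14, edgeR adjusted p = 9.22e-05). ADAM12, with 1 read at 0 h, stood at 10.0 and 9.28 CPM (ratio 616, 95% counting interval 110 to 24400, edgeR adjusted p = 9.54e-09). ADAM10 was thus higher at 72 h, when the ADAM17 libraries overlapped those of 0 h. Of the other ADAMTS genes, 7 of 12 rose and 1 fell at 72 h (median 1.21, or 1.04 with ADAMTS18 at its bound), and 5 rose and 4 fell at 6 h. For ADAMTS genes 66.7% were called at 72 h and 75% at 6 h. ADAMTS3, a procollagen peptidase, rose from 42.8 and 38.6 CPM to 229 and 187 CPM at 72 h (log2 fold change 2.35 with an SE of 0.11, edgeR adjusted p = 4.70e-10). ADAMTS16, with 1 read at 0 h, had 2.15 and 2.00 CPM at 72 h (ratio 132, 95% counting interval 23.3 to 5260, edgeR adjusted p = 2.91e-06).

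Of the activators, partners and receptors, 8 of 13 rose and 1 fell both at 6 h (median 0.87) and at 72 h (median 0.96). That is 69.2% called at each, against 57.2% of all genes at 6 h and 58.6% at 72 h. CD44, a hyaluronan receptor that also docks MMP9, stood at 14.3 and 15.2 CPM at 0 h and rose to 1550 and 1670 CPM at 6 h and 4820 and 4440 CPM at 72 h (log2 fold change 8.29 at 72 h with an SE of 0.14, edgeR adjusted p = 7.13e-14). Of the substrates of ADAM17 and ADAM10, 9 of 11 rose and 1 fell at 6 h (median 1.33), and 8 rose and 1 fell at 72 h (median 1.41). For these substrates 90.9% were called at 6 h and 81.8% at 72 h. A link between these counts and the level of ADAM17 was not tested. AREG, the EGF-receptor ligand amphiregulin, went from 4.76 and 4.18 CPM to 445 and 464 CPM at 6 h (log2 fold change 6.67 with an SE of 0.12, edgeR adjusted p = 3.10e-13) and stood at 18.4 and 16.3 CPM at 72 h. TNFRSF1B, the second TNF receptor, rose from 45.3 and 58.5 CPM to 233 and 242 CPM at 72 h (log2 fold change 2.19 with an SE of 0.13, edgeR adjusted p = 6.68e-09). L1CAM, an adhesion protein, rose by 4.62 on the log2 scale at 72 h (SE 0.21, edgeR adjusted p = 3.42e-10).

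Of the matrix substrates, 5 of 13 rose and 1 fell at 6 h (median 0.90), and 11 rose and 2 fell at 72 h (median 2.98). For matrix substrates 46.2% were called at 6 h and 100% at 72 h, against 57.2 and 58.6% of all genes. LAMC1, the gamma 1 chain of laminin, rose from 0.338 and 0.386 CPM to 51.0 and 53.2 CPM at 6 h (log2 fold change 7.16 with an SE of 0.22, edgeR adjusted p = 1.09e-11) and stood at 33.1 and 29.8 CPM at 72 h. LAMB1 rose at 6 h (log2 fold change 1.46 with an SE of 0.10, edgeR adjusted p = 4.01e-08). LAMA5 fell from 113 and 145 CPM to 43.7 and 63.7 CPM at 72 h (log2 fold change −1.26 with an SE of 0.18, edgeR adjusted p = 2.89e-05). The laminin chains thus did not all move one way.

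**Figure D5:**
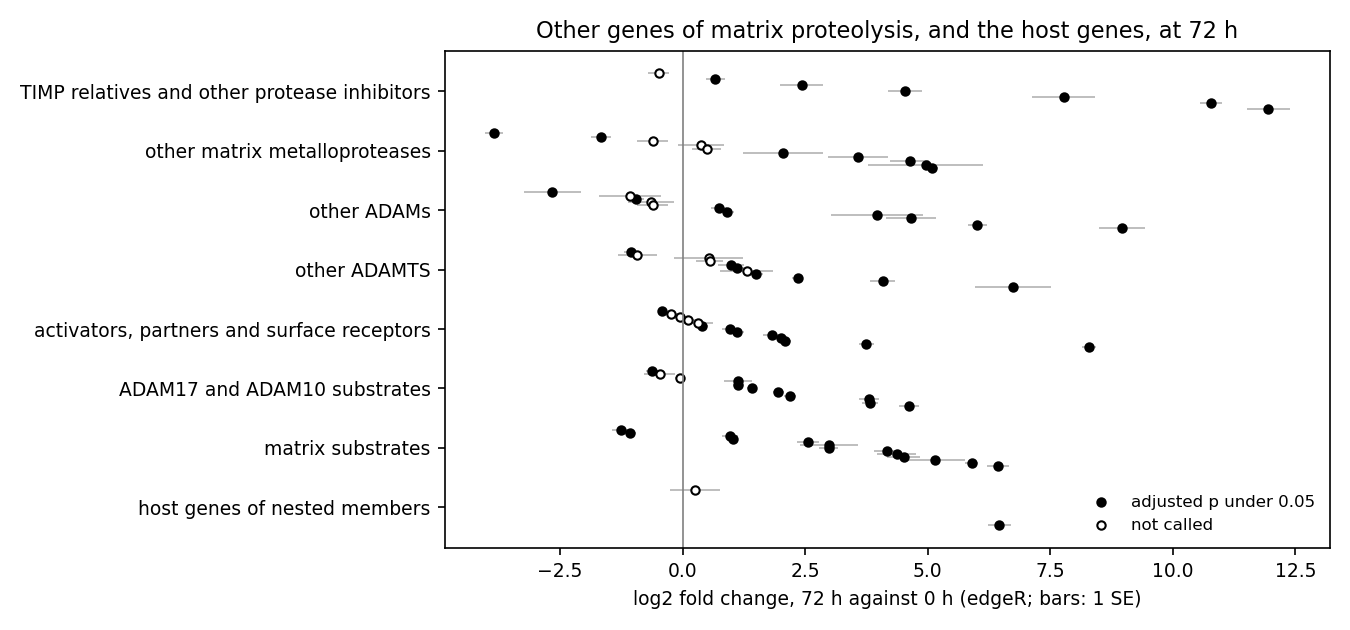
log2 fold change at 72 h against 0 h (horizontal axis) of the other genes of matrix proteolysis and of the host genes SYN1 and SYN3, by list; points are genes, bars are 1 SE, and filled points passed an adjusted p under 0.05 in edgeR. ADAM20 and ADAMTS18, at 0 reads in both 0 h libraries, are not drawn. In the plot 6 of 7 inhibitors and 11 of 13 matrix substrates are filled and to the right of 0, against 31.7% of all genes.

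Marker lists were read beside these results. Of 10 markers of the K562 line, 9 exceeded 10 CPM in some library, and their summed level was 1990 to 2290 CPM at 0 h and 1470 to 1950 CPM at 72 h. The 7 markers of a megakaryocyte-like state summed to 58.3 to 68.2 CPM at 0 h and 5390 to 6200 CPM at 72 h, where THBS1 (mean 4590 CPM) and ITGB3 (1090 CPM) made up nearly all of it. ITGA2B, most of the sum at 0 h (57.7 CPM), went to 13.1 CPM by 24 h and to 61.9 CPM by 72 h, and PF4 and GP1BA had at most 1 and 5 reads in any library. Markers of fibroblasts, a cell type rich in TIMP1 and MMP1, summed to 11.4 to 13.5 CPM at 0 h and 220 to 237 CPM at 72 h, of which COL1A1 alone made up 207 CPM, with LUM at 0 reads in all 16 libraries and COL3A1 at 5 reads at most. Markers of monocytes and macrophages summed to 77.5 to 78.8 CPM at 0 h and 56.9 to 65.5 CPM at 72 h, with CD14 at 18 reads at most. LYZ made up most of this sum, with a mean of 72.4 CPM at 0 h and 48.1 CPM at 72 h. CSF1R went the other way, from a mean of 0.0636 CPM to 7.27 CPM, while CD163 stood at 5.5 and 5.37 CPM. Lymphocyte markers summed to 8.72 to 11.1 CPM at 0 h and 18.5 to 18.8 CPM at 72 h. Markers of epithelium or endothelium summed to 499 to 597 CPM at 0 h and 3040 to 3180 CPM at 72 h, mostly the keratins KRT8 and KRT18. The part of any other cell type in the levels of the members was not tested.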

How the data were processed

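RNA of 16 libraries (8 time points, 2 each) had been quantified by the authors. Each deposited table gives, per the file headers, an estimated count of reads per transcript and its TPM for 177456 transcripts. The submitters' processing notes name Trim Galore 0.4.3 and Salmon among the tools and both hg19 and hg38; which build these tables used, the Salmon version and the strand setting are not given in the sources used here. Transcripts were matched by identifier to GENCODE 29 (GRCh38); 167027 (94.12%) matched, in 35052 genes, and the others held 3.0137 to 3.7538% of reads. Transcript lengths in the tables differ from GENCODE 29 for some transcripts, TIMP1-201 among them.

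Deposited estimated counts were summed per gene, rounded and tested with edgeR 4.0.16 in R 4.3.3 (filterByExpr, 17559 genes; TMM factors 0.8543 to 1.139; quasi-likelihood F-test, all 16 libraries sharing a common biological coefficient of variation of 0.123; prior count 0.125; Benjamini-Hochberg adjusted p under 0.05 per time point). All 9 members passed the filter. SE is that of the fitted log2 fold change. Values are means ± SD over 2 libraries or both libraries, replicate 1 first. An exact permutation test of 2 against 2 cannot reach 0.05. TPM sums used the deposited TPM values; those over whole families were added after the members' values had been seen. Transcript usage was tested with diffSpliceDGE. Library totals were 27285773 to 54056289 reads, and 3 reads were 0.0623 to 0.128 CPM on the TMM-scaled scale. Replicate 1 had fragment lengths of 209.95 to 221.14 nt. Replicate 2 had 199.16 nt at 0 h and, at the other time points, 229.44 to 248.42 nt, above all of replicate 1. Per library, 19616 to 21073 genes had a read. The tests were checked on simulated counts with 200 changed genes at 72 h. The test called 90.0% of those changed 2-fold and 100% of those changed 4-fold, and 5.47% of calls were false. The simulation gave all genes the same spread, changed only genes with more than a few reads, and held no GC or replicate difference. Its rates may therefore not hold for these data, where 58.6% of genes were called at 72 h.

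The members and lists were chosen with earlier results of these data known. From each list the text names the called gene with the largest change and the one with the highest mean CPM, at 6 and at 72 h, if its mean reached 1 CPM; genes most like a member were sought where the mean reached 5 CPM, 5 for TIMP1 and 2 for each other member, of which 1 for ADAM17 is not reported here. COL1A1, PF4, GP1BA and the other markers are named as values of their lists. Alternatives were DESeq2 1.42.0, other scalings, filters, a GC correction, counts from TPM, the replicate block, fits of 2 time points and leaving out libraries.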

Additional observations from a re-analysis of the deposited data

How the results depend on the processing

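Of 960 values recomputed under other settings, 831 stayed within the limit set for them (the spread between libraries for a level, 1.5-fold for a count) and 129 did not; of the 853 member values, 116 did not. Small member differences changed sign, such as that of ADAM17 at 24 h, from 0.17 to −0.05 with the GC trend removed and the replicate block. The log2 fold change of TIMP1 at 72 h was 6.29 to 6.54 under other scalings, filters, tests and counts, and 6.11 to 6.87 with 1 library left out. The count of the 80 other genes called at 0.5 h, 0, became 3 with no filter on low counts and 1 with DESeq2. It was highest with replicate 1 of 0 h left out. At 1.5 h the count of 11 became 17 with libraries scaled to total counts and 7 in a fit of only the 2 time points, and ranged from 5 to 20 with 1 library left out. At 72 h the count of 61 became 40 when at least 10 counts were required in every library, where fewer genes were tested. Scaling to total counts moved the median log2 fold change of all genes to −0.12 by 1.5 h, to −0.35 by 6 h, where the shift was largest of the 7 time points, and to −0.19 by 72 h. The number of members called for transcript usage, 1, was 0 to 1 with 1 library left out. The cause was not tested for the other moves. No share over all genes is given beside the counts under other settings, here or with the replicate block. These counts therefore describe the settings and show nothing particular to the listed genes.

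The replicate numbers were not taken as pairs. Deviations of same-numbered libraries correlated at −0.12 to 0.21, mostly above 0, and over 0.1 in 13 of the 28 pairs of time points. With the replicate number as a block, the counts were 0, 13, 39, 50, 58, 59 and 63 from 0.5 to 72 h, TIMP1 at 72 h had a log2 fold change of 6.46, and its transcript usage stayed called (edgeR adjusted p = 0.00239); these counts stayed within the limit. By Pearson r in place of the root-mean-square difference, 1 of the 5 genes most like TIMP1 was the same.

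With 2 libraries per time point the spread rests on the shared estimate of all 16. TIMP2 and MMP9 had 1 to 2 reads per 0 h library and MMP1 15 and 3, which limits how well their ratios are known.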
